A study of Homo sapiens with 4 samples.

Results

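Immune checkpoint ligands are proteins on the surface of a cell that bind receptors on T cells, natural killer (NK) cells and macrophages and raise or lower their activity. The genes of 10 such ligands were examined in U87MG, an established human glioblastoma cell line, after silencing of CASP2, the gene of the protease caspase-2. The 10 are CD274 (encoding PD-L1), PDCD1LG2 (PD-L2), CD276 (B7-H3), VTCN1 (B7-H4), CD80, CD86, CD47, PVR, NECTIN2 and LGALS9 (galectin-9). CD274 was chosen by its difference between the silenced and the control arrays, and the other genes were chosen from its functional class. Each gene is represented by the probe sets, groups of short probes along a transcript, that the platform annotation ties to that symbol alone. This gave 10 probe sets for the 10 genes, of 19158 probe sets with 1 symbol, which cover 18404 genes, and 32321 in all, and no filter on low values was applied.

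The series holds 4 Affymetrix arrays of total RNA, 2 from U87MG cells transfected with a control siRNA and 2 from U87MG cells transfected with an siRNA against CASP2. Both groups are labelled as biological replicates, with no word on separate cultures. All cells were grown in the same medium and received an siRNA from the same supplier, and the methods list 1 silencing oligo from that supplier and, as its control, a mutated form of it. With 1 oligo, effects of lower CASP2 and effects of that oligo itself cannot be told apart. Values are log2 values after Robust Multi-Array Average (RMA), the normalization used by the authors, and a difference of 1 on this scale is a doubling. So few arrays limit the precision: the smallest two-sided p that an exact permutation test allows here is 0.333.

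CD274 and PDCD1LG2 encode the ligands of PD-1, a receptor that dampens activated T cells. Both genes lie next to each other on the short arm of chromosome 9, a stretch that is gained as a whole in some lymphomas. CD80 and CD86 engage the activating receptor CD28 and the inhibitory receptor CTLA4 and are typical of antigen-presenting cells. CD276 and VTCN1 belong to the same B7 family as these 4. CD47 binds SIRPA on macrophages and restrains phagocytosis, PVR and NECTIN2 are ligands of TIGIT and CD226 on T and NK cells, and galectin-9 is a ligand of the receptor HAVCR2. Interferon gamma, through JAK kinases and the transcription factor IRF1, is the best known inducer of CD274.

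The 250 bases before the annotated start of CD274 are shown because this gene and its neighbour on the upstream side, PLGRKT, the gene of a plasminogen receptor, were both lower on the silenced arrays. They are read in the direction of each gene, from RefSeq on GRCh38.p14. CD274 lies on the plus strand with the stretch at chr9:5450292-5450541, and PLGRKT on the minus strand with the stretch at chr9:5437926-5438175. The genes run away from each other, and their starts are 12617 bases apart. Capitals mark matches, on either strand, to TTCNNNGAA, the GAS element (gamma interferon activation site), and to the ISRE core, a pair of GAAA blocks 2 bases apart within the element bound by interferon regulatory factors.
CD274: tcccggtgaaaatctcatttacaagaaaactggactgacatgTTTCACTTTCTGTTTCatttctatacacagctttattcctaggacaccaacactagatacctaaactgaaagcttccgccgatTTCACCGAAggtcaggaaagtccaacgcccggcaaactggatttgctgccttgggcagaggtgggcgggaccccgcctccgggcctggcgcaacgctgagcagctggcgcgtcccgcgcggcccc
PLGRKT: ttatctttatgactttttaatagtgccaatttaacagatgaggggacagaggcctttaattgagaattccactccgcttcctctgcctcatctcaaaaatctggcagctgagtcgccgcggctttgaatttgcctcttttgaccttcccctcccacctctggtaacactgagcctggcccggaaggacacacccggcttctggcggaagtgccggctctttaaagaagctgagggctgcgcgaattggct
The CD274 stretch holds 2 matches to the ISRE core, 208 to 199 and 202 to 193 bases before the start, which overlap each other. It holds 1 match to the GAS element, 125 to 117 bases before the start. Among 22199 promoters of protein-coding genes, 2.71% hold a match to the ISRE core in these 250 bases and 5.92% a match to the GAS element. The PLGRKT stretch has neither, and neither do those of CD276, VTCN1, CD80, CD86, CD47, PVR, NECTIN2 and LGALS9. For each gene the first entry among the promoters used was read, and any further entry was not examined. PDCD1LG2 had no entry among the promoters used, so its stretch was not examined. A match is a description of the letters, not a measured binding site.

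CASP2 lay at 10.74 and 10.69 on the control arrays and at 8.79 and 8.52 on the silenced arrays. Across all probe sets the 2 silenced arrays differed from each other more than any other pair of arrays. The standard deviation of the difference was 0.348, against 0.205 between the control arrays and 0.238 to 0.290 between groups. CASP2 siRNA replicate 2 lay farther from the control arrays (0.280 and 0.290) than replicate 1 did (0.238 and 0.255). Its upper quartile was the lowest of all arrays (8.58, against 8.66 to 8.69) and its median the highest (6.28). The mesenchymal genes VIM and CD44 were among the brightest (control means of 13.0 for each), whereas the glial markers GFAP (6.53), SOX2 (5.50) and S100B (3.74) lay near or below the array medians of 6.18 to 6.28. The 7 measured immune cell markers, among them PTPRC, the pan-leukocyte gene CD45, at 3.70, lay between 3.70 and 5.87 on the control arrays. The median difference, silenced minus control, was 0.072 for these 7, 0.044 for 4 neuronal and oligodendrocyte markers, 0.060 for 3 endothelial markers and -0.0040 for the 7 glial and mesenchymal markers. Single markers ranged from AIF1 (-0.069) to CSF1R (0.19), both of macrophages, in the immune list, from NES (-0.060), of neural progenitors, to CHI3L1 (0.30, interval -0.44 to 1.05) in the glial and mesenchymal list, and from PECAM1 (0.024) to VWF (0.15) in the endothelial list.

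The neuronal and oligodendrocyte list ran from MOG (-0.48, interval -0.86 to -0.090) to MBP (0.13), both myelin genes. MOG lay at 7.31 and 7.53 on the control arrays and at 7.07 and 6.81 on the silenced arrays, so both silenced arrays were lower, by nearly as much as for PDCD1LG2. Its 2 other probe sets differed from this, with 1.05 (interval 0.27 to 1.83) and -0.061 (-0.30 to 0.18), so the direction of MOG depends on the probe set. The summed level of the 4 markers was 8.54 to 8.62 on the control arrays and 8.39 to 8.46 on the silenced arrays on the log2 scale, and its part in the results for CD274 and PDCD1LG2 was not tested.

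On the control arrays the members fell into 2 ranges of level. CD276, CD47, PDCD1LG2, PVR, NECTIN2 and CD274 lay well above the array median, between the 76th and the 95th percentile of all probe sets. VTCN1, LGALS9, CD80 and CD86 lay near or below the lower quartile, between the 18th and the 26th percentile. Levels of different probe sets depend on their probes as well as on the RNA, so this order is that of array values and not of mRNA amounts.

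**Figure D1:**
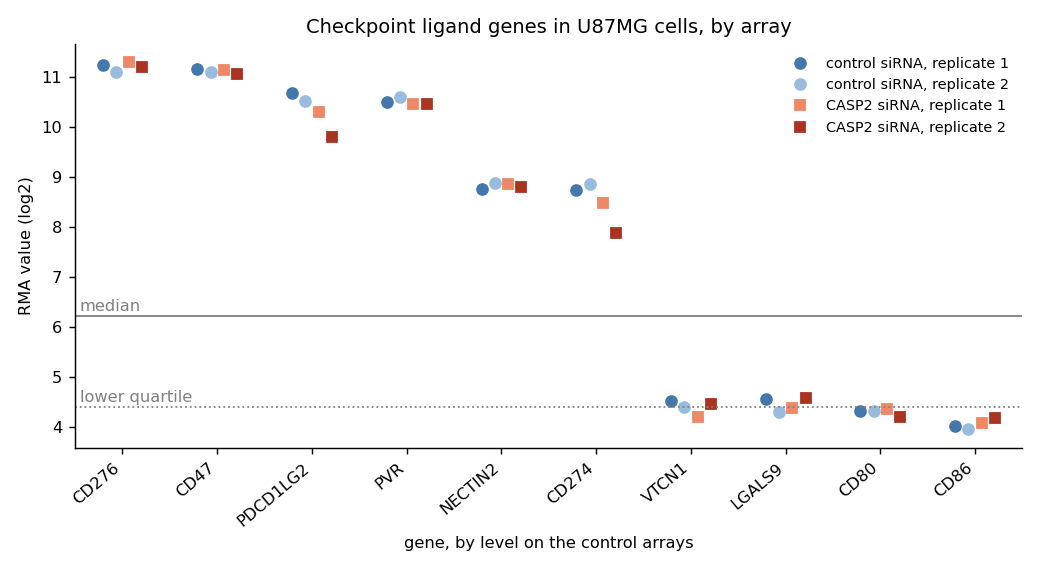
RMA value (y axis, log2) of the 10 checkpoint ligand genes (x axis, ordered by level on the control arrays), with 1 point per array, circles for control siRNA and squares for CASP2 siRNA. Lines mark the mean over arrays of the median and of the lower quartile of all probe sets. CD276 to CD274 lie above the median and VTCN1 to CD86 around the lower quartile. Both silenced arrays lie below both control arrays for PDCD1LG2, CD274 and, by a smaller distance, PVR.

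The 2 highest members, CD276 (11.23 and 11.09) and CD47 (11.15 and 11.10), overlapped in their control values. PDCD1LG2 (10.66 and 10.51) and PVR (10.48 and 10.59) overlapped as well, and so did NECTIN2 (8.76 and 8.87) and CD274 (8.73 and 8.86). Among the dim members, VTCN1 (4.51 and 4.39) overlapped with LGALS9 (4.57 and 4.30), and LGALS9 with CD80 (4.32 and 4.33). CD86 (4.02 and 3.96) lay below CD80 on each control array. The steps that exceeded the spread of the control arrays were those from CD47 to PDCD1LG2 (0.54), from PVR to NECTIN2 (1.72), from CD274 to VTCN1 (4.34) and from CD80 to CD86 (0.34).

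Of the 10 members, CD274 and PDCD1LG2 had the largest differences between groups, and both were lower after the CASP2 siRNA. As CD274 was chosen by this contrast, the differences of all members are given as a description with the standard error (SE) and 95% confidence interval of the limma fit, and with no p. In a bulk culture, fewer cells with a transcript and less of it per cell cannot be told apart.

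CD274 lay at 8.73 and 8.86 on the control arrays and at 8.48 and 7.87 on the silenced arrays. Both silenced arrays lay below both control arrays, replicate 2 far more so than replicate 1, at -0.92 and -0.31 from the control mean. The mean difference was -0.62 (SE 0.23, 95% confidence interval -1.22 to -0.011, n = 2 arrays per group), a fold of 1.53. The study called genes at a fold above 1.5 with an unadjusted p under 0.05, and with the p of limma CD274 lies just past these limits. With the methods' t-test it does not pass them. With CASP2 siRNA replicate 2 left out the difference was -0.31, and with replicate 1 left out it was -0.92.

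PDCD1LG2 lay at 10.66 and 10.51 on the control arrays and at 10.29 and 9.78 on the silenced arrays. As for CD274, neither silenced array reached the control arrays, and replicate 2 was the lowest, at -0.80 against -0.29 for replicate 1. The mean difference was -0.55 (SE 0.20, interval -1.08 to -0.017), a fold of 1.46, just short of the fold of 1.5. Nearest to that limit among lower probe sets with an unadjusted p under 0.05 were MARK2, a polarity kinase, on its inner side (difference -0.59) and SEMA3A, a secreted guidance cue, on its outer side (-0.58). With CASP2 siRNA replicate 2 left out the difference of PDCD1LG2 was -0.29, and with replicate 1 left out it was -0.80.

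**Figure D2:**
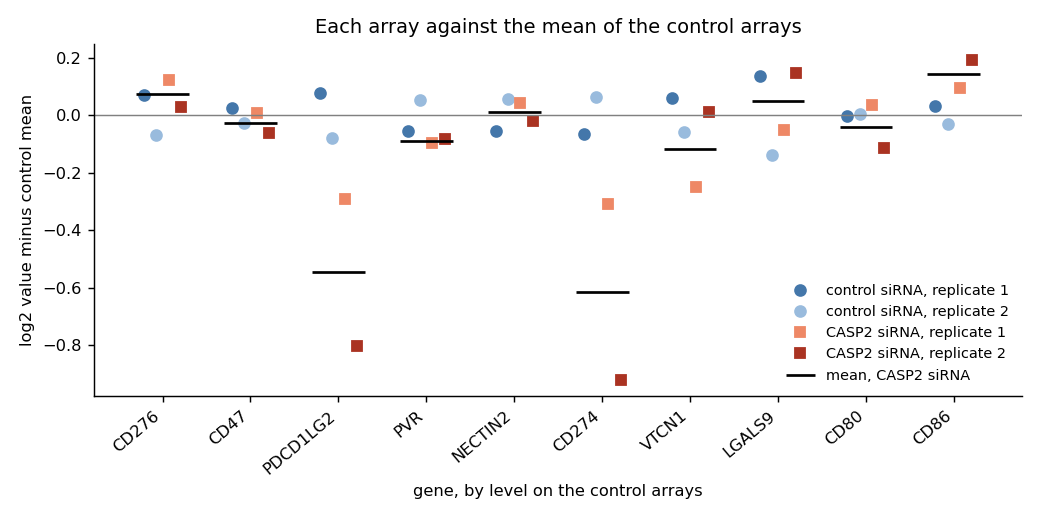
Distance of each array from the control mean (y axis, log2) for the 10 genes (x axis, ordered by control level), with circles for control siRNA, squares for CASP2 siRNA and a short line for the mean of the silenced arrays. The silenced means of CD274 (-0.62) and PDCD1LG2 (-0.55) lie apart from those of the other 8 genes, which range from -0.12 to 0.14.

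The other 8 members had differences between -0.12 and 0.14, with a median of -0.0080, beside -0.00076 over all probe sets with 1 symbol. The median of their absolute differences was 0.062, beside 0.078 over all probe sets with 1 symbol. The intervals of all 8 contained 0.

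The phagocytosis checkpoint CD47 lay at 11.15 and 11.10 on the control arrays and at 11.13 and 11.06 on the silenced arrays, so the groups overlapped, with a difference of -0.027 (interval -0.28 to 0.22). CD276 also overlapped, with 11.28 and 11.19 on the silenced arrays and a difference of 0.076 (-0.20 to 0.36). For these bright genes the intervals leave out decreases of the size measured for CD274.

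Of the TIGIT ligands, PVR lay at 10.44 and 10.46 on the silenced arrays, below both control arrays, with a difference of -0.089 (-0.34 to 0.17). NECTIN2 overlapped, at 8.86 and 8.80 on the silenced arrays, with a difference of 0.011 (-0.25 to 0.27). The separation of the PVR arrays was no larger than the distance between its control arrays (10.48 and 10.59).

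The dim members gave no more than small differences around background. VTCN1 lay at 4.20 and 4.47 on the silenced arrays (difference -0.12, -0.47 to 0.23) and CD80 at 4.36 and 4.21 (-0.040, -0.31 to 0.23). CD86 lay at 4.08 and 4.18 on the silenced arrays, above both control arrays, with a difference of 0.14 (-0.11 to 0.40). LGALS9 lay at 4.38 and 4.58 (0.048, -0.33 to 0.43). A further 2 probe sets carry LGALS9 together with its near-identical copies LGALS9B and LGALS9C, so they cannot be assigned. Their control means were 5.59 and 6.03 and their differences -0.29 and -0.053, with overlapping arrays in each.

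In counts, 3 of the 10 members (CD274, PDCD1LG2 and PVR) had both silenced arrays below both control arrays, and 1 (CD86) had both above. Over all probe sets with 1 symbol these positions were found in 16.3% and 14.6%. With the further condition of a mean at least 0.5 lower, a limit set after the values were seen, 2 members remained, CD274 and PDCD1LG2, beside 0.318% of the probe sets. With the p of limma, the thresholds of the study were passed by 1 member, CD274, in the lower direction, beside 0.136% of the probe sets with 1 symbol, and by 0 members in the higher direction, beside 0.0992%. By the methods' t-test 0 members passed them, and 0 passed by limma without control siRNA replicate 1, control siRNA replicate 2 or CASP2 siRNA replicate 2. By limma with Benjamini-Hochberg adjustment, 0 members and 0 of all 32321 probe sets (0%) had an adjusted p under 0.05, and 979 had an unadjusted p under 0.05. As the contrast chose CD274, nothing is read from these shares.

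CD274 and PDCD1LG2 are neighbours, so the genes around them were examined in their RefSeq order, 10 measured protein-coding genes on each side. The gene before CD274 is PLGRKT. It lay at 7.34 and 7.26 on the control arrays and at 6.36 and 5.70 on the silenced arrays. The silenced arrays were again below both control arrays, with replicate 2 the lowest (-1.60, against -0.93 for replicate 1). The mean difference was -1.26 (SE 0.24, interval -1.90 to -0.62), a fold of 2.40, larger than that of CD274 or PDCD1LG2. PLGRKT had been seen among the largest decreases of these arrays before its place beside CD274 was examined.

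**Figure D3:**
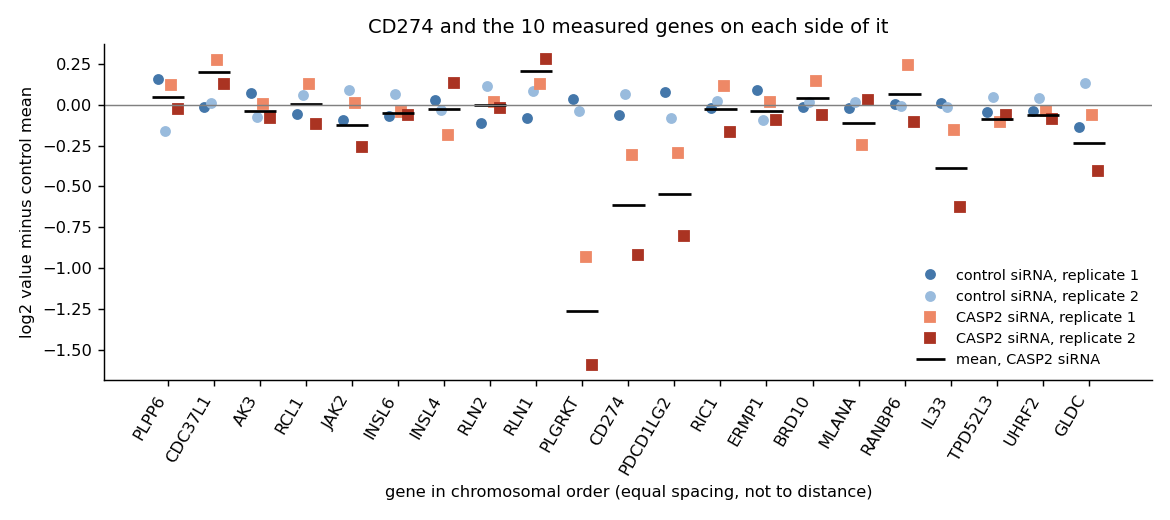
Distance of each array from the control mean (y axis, log2) for CD274 and the 10 measured protein-coding genes on each side of it (x axis, chromosomal order with equal spacing), with circles for control siRNA, squares for CASP2 siRNA and a short line for the mean of the silenced arrays. PLGRKT (-1.26), CD274 (-0.62) and PDCD1LG2 (-0.55) stand in a row. On their outer sides lie RLN1, with a dim probe set, at 0.21 and RIC1 at -0.027.

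The genes directly after PDCD1LG2 showed no such decrease. RIC1, a subunit of a Golgi exchange factor and the gene after PDCD1LG2, lay at 8.04 and 8.08 on the control arrays and at 8.18 and 7.89 on the silenced arrays, a difference of -0.027 (interval -0.37 to 0.32). The next, ERMP1, an endoplasmic reticulum peptidase, had -0.038 (-0.34 to 0.27). On the other side the relaxin genes RLN1 and RLN2 had differences of 0.21 (-0.10 to 0.51) and -0.00025 (-0.31 to 0.31). Their probe sets were dim (control means of 4.60 and 3.34), as were those of INSL4 (4.03) and INSL6 (3.92) beyond them. Differences near background are compressed, so where the lower values end on this side cannot be told. JAK2, the kinase of the interferon gamma receptor and 6 places from CD274, had -0.13 (-0.50 to 0.25), with overlapping arrays.

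Of the 20 neighbours, 14 had a difference below 0 and 6 above, and their median was -0.038. Both silenced arrays lay below both control arrays for 4, namely PLGRKT, PDCD1LG2, IL33 and TPD52L3, and above them for 2, beside 16.3% and 14.6% of all probe sets with 1 symbol. IL33, the gene of an alarmin cytokine, lay 7 places from CD274 at 4.25 and 4.22 on the control arrays and at 4.08 and 3.61 on the silenced arrays. This is a difference of -0.39 (-0.87 to 0.097) at a level below the lower quartile. With the p of limma, PLGRKT was the 1 neighbour past the thresholds of the study in the lower direction, beside 0.136% of all probe sets with 1 symbol, and by the methods' t-test 0 neighbours passed.

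Every chromosome was then counted in the same way, by 16885 measured protein-coding genes in RefSeq order, each by its brightest probe set. Of these, 51 had both silenced arrays below both control arrays and a mean at least 0.5 lower. Among 16839 runs of 3 measured neighbours, 1 run had all of its genes in this state, and it was PLGRKT, CD274 and PDCD1LG2. Among 16862 runs of 2, 3 were found, namely the pairs within this run and LCP1 with LRRC63. In the opposite direction, 22 genes were at least 0.5 higher and 0 runs of 2 or 3 were found. The count of runs was set after the 3 genes were seen, and it is a description with no test. It depends on the arrays used. The run was still counted without control siRNA replicate 2 and without CASP2 siRNA replicate 1. No run of 3 was counted without control siRNA replicate 1, where PDCD1LG2 lay less than 0.5 lower (-0.47). The same held without CASP2 siRNA replicate 2, where both CD274 (-0.31) and PDCD1LG2 (-0.29) lay less than 0.5 lower.

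The pattern of CD274 over the 4 arrays, each value taken against the control mean of its own probe set, was compared with that of the 19157 other probe sets with 1 symbol by Euclidean distance. The nearest were those of IL13RA2, a decoy receptor of interleukin-13 (distance 0.084), FTSJ3, an rRNA methyltransferase (0.096), TGIF1, a transcriptional repressor (0.099), GINS1, a replication factor (0.15), and VNN1, a pantetheinase (0.15). Their differences ranged from -0.67 for FTSJ3 to -0.55 for TGIF1, and each had its lowest value on CASP2 siRNA replicate 2. PDCD1LG2 came 17th of the 19157, at a distance of 0.23. With 4 arrays such likeness says little beyond the size of the difference on each silenced array. PLGRKT, whose decrease was larger, came 7114th.

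Genes of the surrounding pathways showed smaller differences than PDCD1LG2 and CD274, the latter chosen by this contrast. None of the genes in the 8 lists below passed an adjusted p of 0.05 by limma or the thresholds of the study in either direction, and 1 of them, IDO2, had an unadjusted p under 0.05. Each gene is given by its brightest probe set.

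**Figure D4:**
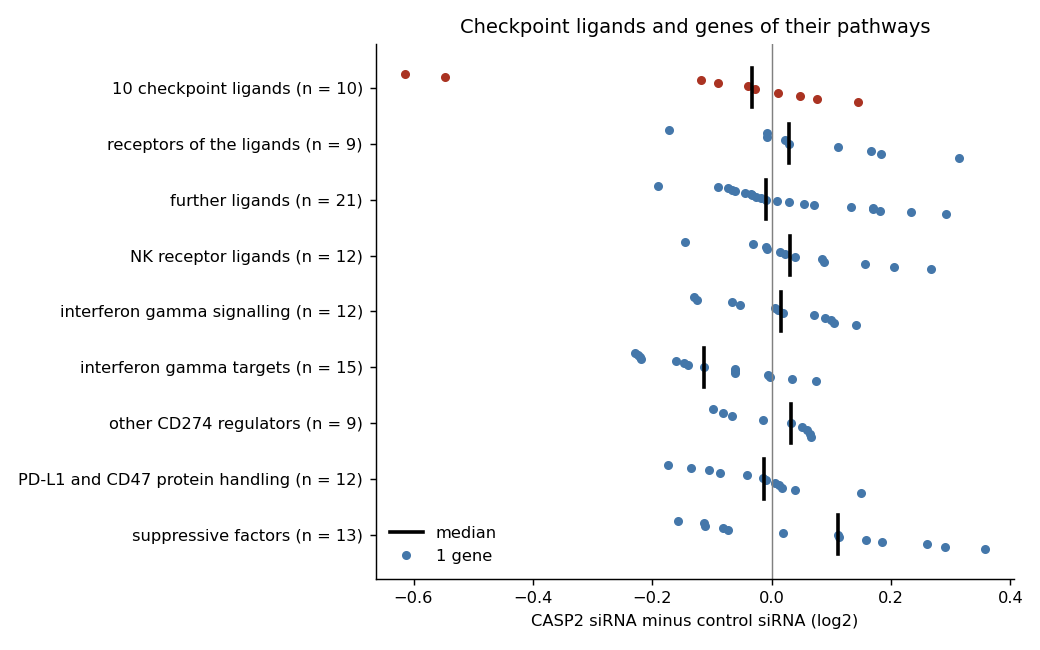
Log2 difference between the CASP2 siRNA and control siRNA arrays (x axis) of the 10 checkpoint ligands and of the measured genes of 8 lists (y axis), with 1 point per gene and a bar at the median of each list. CD274 (-0.62) and PDCD1LG2 (-0.55) lie outside the range of all 8 lists, which runs from -0.23 for TAP2 to 0.36 for IL6. As CD274 was chosen by this contrast, nothing is read from its place outside the lists.

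The receptors that bind these ligands belong to immune cells. PDCD1, the gene of PD-1, had no probe set with 1 symbol, and 5 of the 9 measured receptors lay below the lower quartile. Their median difference was 0.030. TIGIT had the largest (0.31, interval -0.11 to 0.74, from a control mean of 4.29) and SIRPG, a relative of SIRPA, the smallest (-0.17). SIRPA itself, at 8.11 and 8.22 on the control arrays, was the brightest, with a difference of 0.022. Of 21 further ligands of checkpoint or costimulatory receptors, 10 lay above 0 and 11 below, and the median was -0.0088. NECTIN1, an adhesion molecule related to NECTIN2, had -0.19 (-0.44 to 0.054), CD24, a ligand of the macrophage receptor Siglec-10, had 0.29 (-0.23 to 0.82), and TNFSF9, the costimulatory ligand 4-1BBL, had 0.23 (-0.059 to 0.53). The 12 ligands of NK cell receptors had a median of 0.031, from RAET1E at -0.15 to RAET1L at 0.27, both of the NKG2D ligand family.

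The steps from interferon gamma to CD274 showed little difference. Of 12 measured genes, 8 lay above 0, the median was 0.015 and the range ran from SOCS3 (-0.13) to SOCS1 (0.14), both feedback inhibitors of JAK kinases. IRF1 lay at 7.88 and 7.93 on the control arrays and at 8.04 and 7.97 on the silenced arrays, above both control arrays, with a difference of 0.099 (-0.15 to 0.35). JAK1 (0.089), STAT3 (0.10) and the receptor gene IFNGR1 (0.011) were likewise not lower.

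Genes that interferon gamma induces leaned in the direction of CD274 by smaller amounts. Of 15 measured, 13 lay below 0, the median was -0.11, and 7 had both silenced arrays below both control arrays, beside the 16.3% given above. TAP2, of the peptide transporter for MHC class I, lay at 8.30 and 8.25 on the control arrays and at 8.15 and 7.95 on the silenced arrays (difference -0.23, interval -0.52 to 0.067). NLRC5, an activator of MHC class I genes, had -0.22 (-0.56 to 0.11), the immunoproteasome subunit PSMB9 had -0.22 (-0.48 to 0.039), and TAP1 had -0.15 (-0.39 to 0.097). WARS1, a tRNA synthetase, was the highest at 0.073. The chemokines CXCL9, CXCL10 and CXCL11 lay below the lower quartile.

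Other regulators of CD274 transcription stayed within a narrow range, from NFKB1, an NF-kB subunit, at -0.099 to YAP1, a coactivator of the Hippo pathway, at 0.066 over 9 measured genes, with a median of 0.032. MYC had -0.081 and HIF1A 0.032. Of 12 genes that handle PD-L1 or CD47 protein, the median was -0.012. CMTM6, which protects PD-L1 from lysosomal decay, had 0.018, and QPCTL, the enzyme that modifies CD47 at the SIRPA contact, had -0.14. STUB1, a ubiquitin ligase, was the lowest (-0.17) and BTRC, of another ubiquitin ligase, the highest (0.15).

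The 13 secreted or enzymatic suppressors of T cells had a median of 0.11, and 6 had both silenced arrays above both control arrays, beside 14.6% of all probe sets with 1 symbol. IL6 lay at 7.10 and 7.53 on the control arrays and at 7.54 and 7.81 on the silenced arrays (0.36, interval -0.15 to 0.87). PTGS2, the inducible prostaglandin synthase, had 0.26 (-0.13 to 0.65) and TGFB2, a cytokine known for T cell suppression in glioblastoma, 0.16 (-0.11 to 0.43). IDO2, a tryptophan-degrading enzyme, had 0.29 (0.0099 to 0.57, adjusted p of 0.9999 by limma) at a level below the lower quartile. The lowest was TDO2, another such enzyme, at -0.16.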

How the data were processed

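RNA of U87MG cells was hybridized to Affymetrix Human Gene 1.0 ST arrays, 2 per group. The submitters' processing notes name RMA, with the version not given in the sources used here. Each deposited number is the log2 RMA value the authors computed for a probe set on an array. RMA equalizes probe values between arrays, so a shift of all genes is largely removed, and differences near background are compressed.

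Groups and replicate numbers came from the sample titles. Symbols came from the platform annotation, updated by gene ID through RefSeq (GRCh38.p14) for 19128 of 19158 probe sets with 1 symbol, and 1388 had several and 11775 none. The order of genes and the promoters also came from RefSeq. All 32321 probe sets were fitted with limma 3.58.1 (lmFit, eBayes) in R 4.3.3, two-sided, with 2 residual and 2.47 prior degrees of freedom and Benjamini-Hochberg adjustment. The fit was tested on simulated data. P-values weigh the difference between groups against the spread of these arrays within groups, moderated over all probe sets.

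Members and lists were chosen with earlier results of these data known. Named were CASP2, all members, the extremes of each list and any gene past a threshold, the 3 nearest neighbours of CD274 on each side and the 5 probe sets nearest in pattern. Other genes were named after their values were seen. Alternatives were the methods' t-test, with the SD raised to its median, trend and robust options, quantile normalization, leaving out dim probe sets, linear means, the replicate number as a block and each array left out. Cell surface protein was not analysed here.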

Additional observations from a re-analysis of the deposited data

How the results depend on the processing

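CD274, PDCD1LG2, PLGRKT and CASP2 were lower under each alternative run on their differences. Leaving out single arrays gave -0.92 to -0.31 for CD274, -0.80 to -0.29 for PDCD1LG2, -1.60 to -0.93 for PLGRKT and -2.20 to -1.93 for CASP2. Quantile normalization gave -0.60 for CD274 and a ratio of linear means -0.58, and PDCD1LG2 had -0.53 in each. Signs of members near 0 (VTCN1, CD80, CD47, NECTIN2 and LGALS9) and of RIC1 changed with the array left out. After quantile normalization 2 members, in place of 3, had both silenced arrays below both control arrays. Calls at the thresholds of the study depended more on the setting. By the methods' t-test, 35 probe sets were higher and 37 lower, in place of 107 and 117, with 0 members and 0 list genes past the thresholds. List genes here are those of the pathway lists and the neighbours of CD274 other than members. In the main fit PLGRKT was the 1 list gene past the thresholds. Without dim probe sets 0 members passed, as the fit rests on fewer probe sets. When single arrays were left out, the higher probe sets ranged from 118 to 414, the lower from 157 to 592, the members past the thresholds from 0 to 2 (2 without CASP2 siRNA replicate 1, otherwise 0), the list genes from 1 to 2, the members with silenced arrays below control arrays from 4 to 5, in place of 3, and the runs of 3 lower neighbours, an alternative chosen after seeing the data, from 0 to 1. CD274 passed without CASP2 siRNA replicate 1 and in no other fit on 3 arrays. With fewer arrays in a group, non-overlap is easier to reach. The replicate numbers are shared by the groups, and deviations of same-numbered arrays correlated with r = 0.020 over 2 pairs. With so few pairs this cannot settle whether same-numbered arrays were handled together. With the replicate block, 142 probe sets were higher and 160 lower, with 1 member and 1 list gene past the thresholds and 0 past an adjusted p of 0.05.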
